A study of Mus musculus with 10 samples.

Results

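Genes of fatty acid oxidation and ketone body use were followed in the hypothalamus of mice with a growing tumour. The list held 29 genes, of which 27 had a probe set paired with that gene alone in the platform annotation. The brightest such probe set stood for each gene, and all 27 passed the filter on low values, among 12978 genes tested in all. Acadvl, which shared its only probe set with Dvl2, and Ucp2 are not analysed here. Male CDF1 mice, a cross of BALB/c and DBA/2, were aged 10 to 11 weeks. The tumour-bearing group had been injected under the skin of the flank with 1000000 cells of the C26 colon adenocarcinoma in 0.2 ml of Hank's balanced salt solution, and the control group the same volume without cells. The hypothalamus was taken on day 20 in both groups, from animals fed a standard diet without restriction. Individual arrays covered 5 tumour-bearing and 3 control mice, and 1 further array per group held RNA pooled from 5 tumour-bearing and 4 control mice. C26 is a transplanted line of mouse colon tumour that is used as a model of cancer cachexia, the loss of body tissue in cancer. Values are log2 RMA levels, the authors' normalised array signal on a log2 scale, and differences are tumour-bearing minus control with the standard error (SE) or the 95% interval of limma, a linear model fitted across all 22837 tested probe sets.

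Mitochondria burn fatty acids by beta-oxidation. A long-chain fatty acid is bound to coenzyme A, passed through the carnitine shuttle into the matrix, and then shortened in repeated rounds of dehydrogenation, hydration, a further dehydrogenation and thiolysis that release acetyl-CoA. In fasting the liver turns this acetyl-CoA into ketone bodies, which neurons and glia take up and oxidise. Brain tissue oxidises fatty acids mainly in astrocytes. In the hypothalamus, long-chain acyl-CoA and the carnitine shuttle are also known as signals of fuel state that act on feeding circuits.

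None of the 27 genes passed limma's adjusted threshold of 0.05 (0 called, against 0.0771% of all tested genes), and their adjusted p-values lay between 0.389 and 0.994. At an unadjusted p under 0.05 limma found 4 of the 27 lower in tumour-bearing mice (14.8%, against 6.51% of all genes) and 0 higher (against 3.78%). The 4 were Cpt1a, Hadhb, Acadm and Ppargc1a, and they were 3 (11.1%) with another probe set of Hadhb, as given with that gene. The groups did not overlap, with tumour-bearing mice lower, for 3 of the 27 (11.1%, against 5.19% of all genes; 2, or 7.41%, with that other probe set), and with tumour-bearing mice higher for 0 (against 3.11%). Differences were below 0 for 20 of the 27 genes (74.1%, against 54.5%), with a median of -0.061 beside -0.010 over all genes. Without tumour-bearing mouse 1 the median of the 27 was -0.029. The differences of the 27 genes ran from -0.17 to 0.32 on the log2 scale.

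The intervals show how large a difference these arrays left room for. For 22 of the 27 genes the whole 95% interval lay within a 1.25-fold difference in either direction, as it did for 70.1% of all tested genes. The other 5 were Slc25a20, Decr1, Etfa, Acot1 and Txnip, and only the intervals of Acot1 and Txnip reached beyond 1.5-fold. The plot of the differences by role shows most point estimates left of 0 with intervals that cross it, and Acot1 and Txnip on the right with wide intervals.

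**Figure D1:**
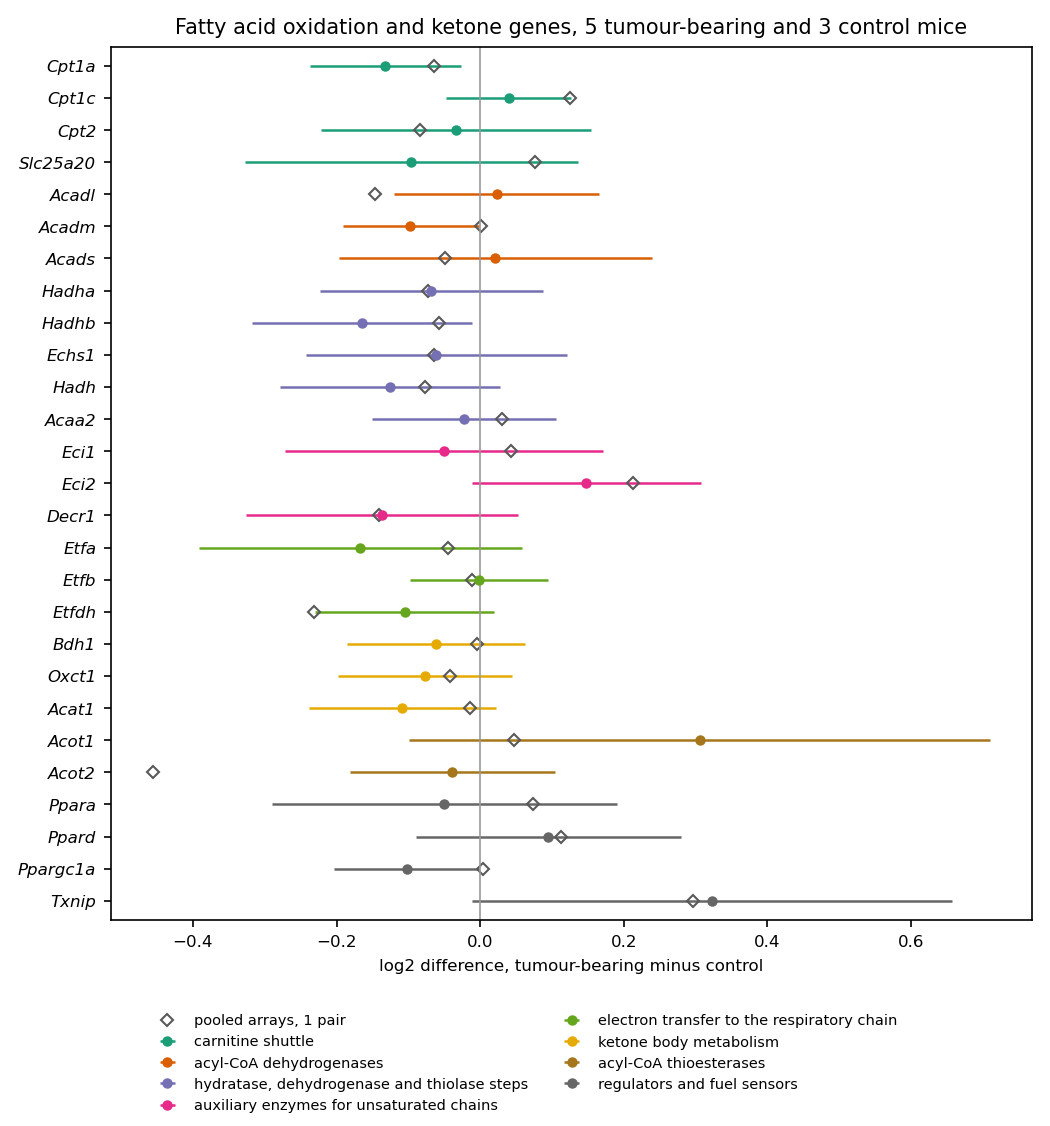
Difference between 5 tumour-bearing and 3 control mice for the 27 genes, on the log2 scale (x axis), with 95% intervals of limma as bars, coloured by role. Open diamonds give the difference of the 2 pooled arrays, 1 pair without replication. The differences run from -0.17 to 0.32, and Acot1 and Txnip have the widest intervals.

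The carnitine shuttle brings long-chain acyl groups into mitochondria. Cpt1a, the carnitine palmitoyltransferase of the outer membrane that sets the pace of entry, had levels of 7.53, 7.59, 7.57, 7.59 and 7.50 in the 5 tumour-bearing mice, against 7.68, 7.65 and 7.75 in the 3 controls. All 5 tumour-bearing mice lay below all 3 controls, with a gap of 0.0534 between the groups. The difference was -0.13 ± 0.05 SE, or 0.913-fold with a 95% interval of 0.849 to 0.982 (unadjusted p = 0.0195, limma adjusted p = 0.389). The tumour-bearing pool was also the lower of the pair, at 7.66 against 7.72. Cpt1c, a brain form of the enzyme that lies in the endoplasmic reticulum of neurons, had levels of 8.55, 8.52, 8.51, 8.53 and 8.56 in tumour-bearing mice, against 8.43, 8.54 and 8.50 in controls. Its groups overlapped, and the interval of the difference was -0.05 to 0.13 (limma adjusted p = 0.775). Cpt2, the transferase of the inner membrane, had levels of 6.55, 6.56, 6.78, 6.66 and 6.41 in tumour-bearing mice, against 6.60, 6.64 and 6.64 in controls. The tumour-bearing values of Cpt2 spread on both sides of the controls, with a difference of -0.03 ± 0.08 SE (limma adjusted p = 0.929). Slc25a20, the carrier that exchanges acylcarnitine for carnitine across the inner membrane, differed by -0.10 ± 0.10 SE, and its lowest and highest levels, 6.11 and 6.61, were both in tumour-bearing mice (limma adjusted p = 0.804).

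The promoter window of Cpt1a is shown because the gene is a known target of PPAR alpha, a nuclear receptor for fatty acids that binds copies of the core site AGGTCA. Windows were taken from RefSeq on GRCm38.p6, from 250 bases before to 50 after the start site, and capitals mark AGGTCA on either strand.
Cpt1a, chr19:3323051-3323350, plus strand: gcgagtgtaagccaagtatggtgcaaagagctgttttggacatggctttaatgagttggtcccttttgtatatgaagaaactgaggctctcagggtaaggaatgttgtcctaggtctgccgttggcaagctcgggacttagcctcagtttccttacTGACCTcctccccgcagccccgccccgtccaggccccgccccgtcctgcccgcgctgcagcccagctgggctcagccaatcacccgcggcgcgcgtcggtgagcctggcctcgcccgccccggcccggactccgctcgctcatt
The Cpt1a window held 1 copy, on the minus strand, with its first base at -94. The core site was found in 4 of the 25 windows of the 24 genes with an entry (16%, against 16.3% of all 32851 windows), those of Acadm, Cpt1a, Cpt1c and Echs1. The pair of direct copies spaced by 1 base, the element bound by PPAR with its partner RXR, was in 0 of the 25 windows and in 0.0396% of all windows.

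Of the acyl-CoA dehydrogenases, which open each round, Acadm was the member with a separation between groups. Acadm acts on medium chains, and its levels were 8.47, 8.52, 8.56, 8.53 and 8.44 in tumour-bearing mice, against 8.63, 8.57 and 8.60 in controls. All tumour-bearing mice lay below all controls, by a gap of only 0.00594. The difference was -0.10 ± 0.04 SE, or 0.935-fold (unadjusted p = 0.0462, limma adjusted p = 0.466), while the pooled arrays were at 8.57 in tumour-bearing and 8.56 in control mice. Acadl, the long-chain enzyme, and Acads, the short-chain enzyme, each differed by 0.02, with intervals of -0.12 to 0.17 and -0.20 to 0.24 (limma adjusted p = 0.938 and 0.967).

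For the later steps of the round the difference was below 0 for all 5 genes, at -0.16 to -0.02. Hadhb encodes the thiolase subunit of the mitochondrial trifunctional protein, and Hadha the subunit with the hydratase and dehydrogenase activities. Hadhb had levels of 7.86, 8.15, 7.98, 8.13 and 7.99 in tumour-bearing mice, against 8.22, 8.19 and 8.15 in controls. No tumour-bearing mouse reached the lowest control, but mouse 2 missed it by only 0.00034. The difference was -0.16 ± 0.07 SE, or 0.892-fold with an interval of 0.802 to 0.993 (unadjusted p = 0.0387, limma adjusted p = 0.444). These values come from the brighter of 2 probe sets that the platform annotation gives to Hadhb, and which transcript that one reads is uncertain. Its number lies among probe sets of genes on mouse chromosome 2, where RefSeq lists the pseudogene Hadhb-ps, while Hadhb lies on chromosome 5. The dimmer probe set had 9 of its 10 neighbours by number on chromosome 5. Its levels were 7.72, 8.06, 7.90, 8.02 and 7.92 in tumour-bearing mice, against 8.13, 8.07 and 8.01 in controls. Its groups overlapped, and it differed by -0.15 ± 0.08 SE (unadjusted p = 0.0769, limma adjusted p = 0.525). For the other 26 genes most neighbours of the probe set were on the gene's own chromosome, with 6 of 10 for Cpt1a the fewest. Hadha had levels of 8.40, 8.68, 8.70, 8.58 and 8.55 in tumour-bearing mice, against 8.58, 8.72 and 8.65 in controls. Its groups overlapped, with mice 1 and 5 below the controls and mouse 4 below the lowest of them by less than 0.01. The difference was -0.07 ± 0.07 SE (limma adjusted p = 0.786), and -0.023 without mouse 1. The other genes of these steps were Hadh, the short-chain hydroxyacyl-CoA dehydrogenase (-0.13 ± 0.07 SE), Echs1, the short-chain hydratase (-0.06 ± 0.08 SE), and Acaa2, a thiolase (-0.02 ± 0.06 SE), with limma adjusted p of 0.561, 0.846 and 0.928.

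Hadha and Hadhb lie head to head, so that a single stretch of sequence holds the start of both. Their annotated start sites were 273 bases apart on mouse chromosome 5, and 228 bases of their windows were shared. The window of Hadhb is printed because it covers most of the sequence between these starts; it holds neither AGGTCA nor the E-box CACGTG, so it has no capitals.
Hadhb, chr5:30155003-30155302, plus strand: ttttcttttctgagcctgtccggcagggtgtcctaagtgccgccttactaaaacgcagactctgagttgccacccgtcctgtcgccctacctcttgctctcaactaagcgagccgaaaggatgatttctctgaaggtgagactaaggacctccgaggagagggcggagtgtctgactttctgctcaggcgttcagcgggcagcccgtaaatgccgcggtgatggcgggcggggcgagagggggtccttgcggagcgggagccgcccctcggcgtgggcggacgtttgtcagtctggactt
Over the 8 arrays, with the brighter probe set of Hadhb, deviations from the group means of Hadha and Hadhb had a Pearson r of 0.58 (exact permutation p = 0.275 within groups; Spearman rho 0.24, exact p = 0.614), and r was 0.44 without the 2 arrays farthest from the median of Hadha.

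Unsaturated fatty acids need isomerases and a reductase before they can enter the round. Eci2, an enoyl-CoA isomerase of peroxisomes and mitochondria, had levels of 7.11, 7.18, 6.95, 7.01 and 7.16 in tumour-bearing mice, against 6.98, 6.98 and 6.84 in controls. It was the member of the enzyme groups with the largest difference above 0 apart from Acot1, with mouse 3 inside the control range (0.15 ± 0.07 SE, unadjusted p = 0.0656, limma adjusted p = 0.511). The pooled arrays differed by 0.21. Eci1, the mitochondrial isomerase, differed by -0.05 ± 0.10 SE, and Decr1, the dienoyl-CoA reductase, by -0.14 ± 0.08 SE (limma adjusted p = 0.903 and 0.613). The difference of Decr1 was -0.055 without control 1.

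Electrons from the dehydrogenases pass through electron transfer flavoprotein, made of the products of Etfa and Etfb, to the oxidoreductase encoded by Etfdh and on to the respiratory chain. Etfa differed by -0.17 ± 0.10 SE, and its groups overlapped (limma adjusted p = 0.605). The difference of Etfa was -0.071 without control 2, which stood above the other mice. Etfdh differed by -0.11 ± 0.06 SE (limma adjusted p = 0.547). Etfb had the narrowest result of this group, with levels of 9.05 to 9.21 in tumour-bearing mice and 9.09 to 9.13 in controls and an interval of 0.934-fold to 1.07-fold (limma adjusted p = 0.994). The partner subunits Etfa and Etfb therefore had different point estimates, and the difference between them was not tested.

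Ketone bodies are interconverted by Bdh1, the hydroxybutyrate dehydrogenase, activated by Oxct1, the CoA transferase that commits acetoacetate to oxidation, and split by Acat1, the mitochondrial acetoacetyl-CoA thiolase. Bdh1 had levels of 7.40, 7.53, 7.45, 7.37 and 7.43 in tumour-bearing mice, against 7.50, 7.43 and 7.57 in controls. Oxct1 had levels of 8.61, 8.60, 8.67, 8.66 and 8.44 in tumour-bearing mice, against 8.68, 8.68 and 8.66 in controls. Acat1 had levels of 8.947, 9.005, 8.984, 9.017 and 9.003 in tumour-bearing mice, against 9.246, 9.092 and 8.962 in controls. The groups overlapped for all 3 genes: control 1 stood high for Acat1, and tumour-bearing mouse 5 stood low for Oxct1. The differences were -0.06 ± 0.05 SE for Bdh1, -0.08 ± 0.05 SE for Oxct1 and -0.11 ± 0.06 SE for Acat1, with limma adjusted p of 0.749, 0.663 and 0.554. That of Acat1 was -0.036 without control 1 and -0.178 without control 3. Each interval lay within 1.25-fold, the lowest bound being 0.847-fold for Acat1.

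Acyl-CoA thioesterases release free fatty acid from coenzyme A. Acot1, the cytosolic form, had levels of 4.49, 5.06, 4.61, 4.53 and 4.61 in tumour-bearing mice, against 4.50, 4.00 and 4.56 in controls. Mouse 2 stood high and control 2 low, below the filter level of 4.32, and the remaining 6 mice lay between 4.49 and 4.61. The difference of 0.31 ± 0.18 SE (limma adjusted p = 0.598) was 0.206 without tumour-bearing mouse 2 and 0.130 without control 2, and the pooled arrays differed by 0.05. Acot2, the mitochondrial form, had levels of 7.83 to 8.07 in tumour-bearing mice and 7.94 to 8.11 in controls (difference -0.04 ± 0.06 SE, limma adjusted p = 0.882). Acot1 and Acot2 are neighbouring, closely similar genes, so signal shared between their probes is possible and was not tested. In the pooled arrays Acot2 was at 7.03 in tumour-bearing and 7.49 in control mice, outside the range of all individual arrays.

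Among the regulators, Ppargc1a, the coactivator that drives mitochondrial and oxidative genes, had levels of 9.06, 9.13, 9.08, 8.99 and 9.17 in tumour-bearing mice, against 9.19, 9.22 and 9.16 in controls. Tumour-bearing mouse 5 lay inside the control range and the other 4 below it (difference -0.10 ± 0.05 SE, unadjusted p = 0.0489, limma adjusted p = 0.473). A dimmer probe set of Ppargc1a had levels of 7.99 to 8.13 in tumour-bearing mice and 8.18 to 8.34 in controls, without overlap (-0.18 ± 0.05 SE, unadjusted p = 0.00729, limma adjusted p = 0.304). Ppara, the receptor for fatty acids, had levels of 5.74, 5.59, 5.44, 5.71 and 5.39 in tumour-bearing mice, against 5.70, 5.63 and 5.54 in controls, so the controls lay within the tumour-bearing range. Ppara differed by -0.05 ± 0.11 SE and its relative Ppard by 0.09 ± 0.08 SE (limma adjusted p = 0.913 and 0.741).

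Txnip encodes an arrestin that limits glucose uptake and binds thioredoxin, and its transcription follows glucose and glucocorticoid supply. Its levels were 8.22, 7.69, 7.69, 7.83 and 7.56 in tumour-bearing mice, against 7.74, 7.35 and 7.34 in controls. Mouse 1 stood above the other tumour-bearing mice, and control 1 lay inside the tumour-bearing range while controls 2 and 3 lay below it. The difference of 0.32 ± 0.15 SE was the largest of the 27, 1.25-fold with an interval of 0.992 to 1.58 (unadjusted p = 0.0573, limma adjusted p = 0.493). The pooled arrays differed by 0.30, at 8.00 in tumour-bearing and 7.70 in control mice. Arrdc4, its close relative that responds to the same glucose sensor, differed by -0.02 ± 0.10 SE (limma adjusted p = 0.963); it was named after its value was seen.

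The Txnip window is printed because it carries the known carbohydrate response element of this gene, which is built from variants of the E-box. Capitals mark CACGAG, a variant added to the search after the first results.
Txnip, chr3:96557707-96558006, plus strand: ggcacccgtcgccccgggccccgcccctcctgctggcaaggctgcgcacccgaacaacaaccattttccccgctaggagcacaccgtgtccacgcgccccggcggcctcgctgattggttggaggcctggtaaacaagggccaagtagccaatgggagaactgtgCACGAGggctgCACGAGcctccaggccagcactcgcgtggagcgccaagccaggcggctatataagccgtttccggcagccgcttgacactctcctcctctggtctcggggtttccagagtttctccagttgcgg
CACGAG began at -85 and again at -74, on the plus strand, with 5 bases between the copies. This spaced pair was found in 1 of all 32851 windows, that of Txnip (0.00304%), while CACGAG alone was in 6.47% of all windows. The pair was searched with the same spacing as in the Txnip window, so the match of that window was fixed in advance. The share is a description and no separate evidence for the element. The E-box CACGTG itself was in 0 of the 25 windows of the members and in 7.15% of all windows.

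**Figure D2:**
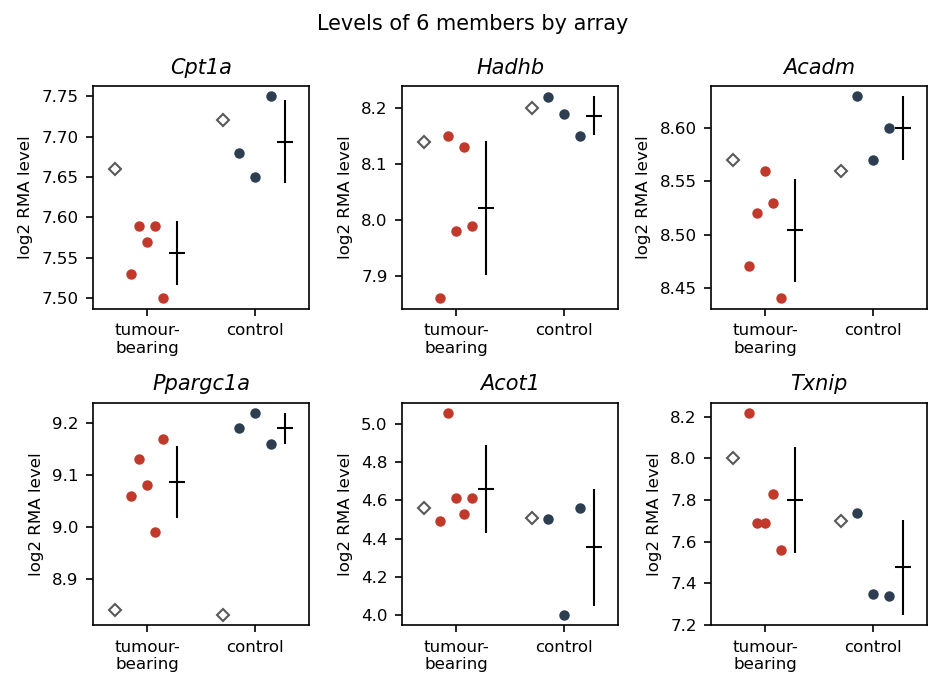
Log2 RMA levels (y axis) of 6 genes in tumour-bearing mice (red points, 5 arrays) and controls (dark points, 3 arrays), with the group mean and SD as a bar beside them and the pooled array of each group as an open diamond; each panel has its own scale, which does not start at 0. Cpt1a, Hadhb (brighter probe set) and Acadm do not overlap between the groups, and Acot1 and Txnip each have a single tumour-bearing mouse above the others.

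Co-variation among the 27 genes was weak. Over 351 pairs, the median Pearson r of deviations from the group means was 0.145, beside 0.005 over all pairs of tested genes, and r was above 0 for 61.5% of the pairs. By the exact permutation test within groups, which reaches no lower than 0.00139, 19 of the 351 pairs had an unadjusted p under 0.05. That is close to the share that this level gives by chance. By the same permutation test 0 pairs passed the adjustment over the pairs (lowest adjusted p = 0.592). The pairs named here were picked from the ends of the range of r. Cpt1a and Hadh had an r of 0.86 over the 8 arrays (exact permutation p = 0.00694; rho 0.90, exact p = 0.00833; r 0.80 without the 2 farthest arrays). Etfdh and Hadha had an r of 0.85 (exact permutation p = 0.0208; rho 0.86, exact p = 0.0222; r 0.93 without the 2 farthest arrays). Acot1 and Bdh1 had the highest r, 0.92 (exact permutation p = 0.00417; rho 0.95, exact p = 0.00417; r 0.81 without the 2 farthest arrays). The lowest r was between Cpt1c and Decr1, -0.88 (exact permutation p = 0.0222; rho -0.90, exact p = 0.0278; r -0.69 without the 2 farthest arrays). Etfb and Slc25a20, with an r of 0.89, rested on the 2 farthest arrays, without which r was 0.35 (exact permutation p = 0.0236 with all arrays; rho 0.76, exact p = 0.0583).

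Single animals differed in how many genes they held at an extreme. Tumour-bearing mouse 1 held the lowest level of the 8 mice for 10 of the 27 genes and mouse 5 for 7, against 2 or 3 genes in each control. Mouse 2 held the lowest level for 1 gene and the highest for 5. The same counts were not made over all tested genes, so whether they are particular to the 27 genes is not known. The mean of the 27 genes, each centred on its own mean, was -0.051, 0.061, -0.006, 0.003 and -0.059 in tumour-bearing mice 1 to 5, against 0.019, 0.009 and 0.024 in controls 1 to 3. Mice 1, 3, 4 and 5 lay below all controls and mouse 2 above them.

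**Figure D3:**
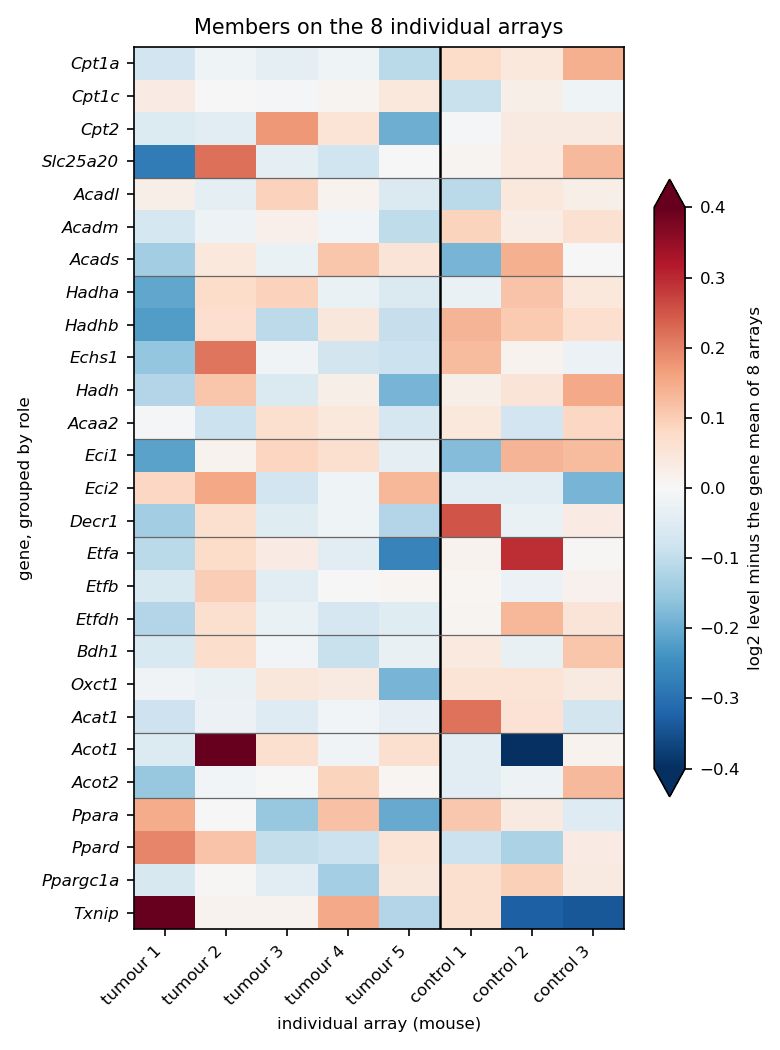
Log2 level of each of the 27 genes on the 8 individual arrays, minus the mean of that gene (colour, with values beyond 0.4 in either direction shown at the end of the scale), with tumour-bearing mice left of the line and controls right of it. Mouse 1 is the lowest of the 8 for 10 genes and mouse 5 for 7, while Txnip runs the other way in mouse 1.

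Markers of the tissue were checked beside these values. Of 14 hypothalamic markers 13 had a probe set of their own and all 13 were above the filter level, among them Hcrt, Avp, Oxt, Npy and Pomc, as the label states. By sign 11 were higher and 2 lower in tumour-bearing mice, and 7 of those higher had an unadjusted p under 0.05 (limma, 0 called). The mean centred level of the 13 was -0.10 to 0.24 in tumour-bearing mice and -0.23 to -0.09 in controls. Of 12 oligodendrocyte markers 10 were measured, all 10 were lower in tumour-bearing mice by sign, and 8 of them had an unadjusted p under 0.05 (limma, 0 called). Their mean centred level was -0.14, 0.20, -0.36, -0.10 and -0.53 in tumour-bearing mice 1 to 5, against 0.33, 0.33 and 0.28 in controls 1 to 3. With this mean as a covariate the median difference of the 27 genes was -0.001 in place of -0.061. This mean did not overlap between the groups, so with 8 arrays the fit can hardly tell it apart from the group. The 7 tested midbrain and hindbrain monoamine markers were all lower by sign, 6 with an unadjusted p under 0.05 (limma, 0 called). Their mean was -0.84 to 0.27 in tumour-bearing mice and 0.16 to 0.75 in controls. With it as the covariate the median of the 27 genes was -0.019. In RNA of whole tissue, fewer cells of a type and less RNA per cell cannot be told apart. The 10 astrocyte markers were split, with 5 higher and 5 lower by sign. At an unadjusted p under 0.05, 2 were lower, Aqp4 (-0.51) and S100b (-0.26), and 2 higher, Glul (0.15) and Slc1a3 (0.13) (limma, 0 called). The mean centred level of the 10 was -0.10 to 0.03 in tumour-bearing mice and 0.01 to 0.06 in controls. Of the 5 tested pituitary markers the mean was -0.40, -0.20, 1.18, 1.10 and -0.18 in tumour-bearing mice 1 to 5, against -0.66 to -0.33 in controls. Gh was at 10.45 and 10.48 in mice 3 and 4, against 4.21 to 5.51 in the other mice. Prl, which the filter left out, was at 7.40 and 7.52 in mice 3 and 4, against 2.89 to 3.46 in the other mice. Lhb (5.64 and 5.55), Cga (7.88 and 7.80) and Ghrhr (4.65 and 4.59) also lay above all controls in mice 3 and 4. For Lhb and Ghrhr so did mouse 5. The levels of Tbx19, and of Tshb below the filter, lay within the control range in mice 3 and 4. Without mice 3 and 4 the median of the 27 genes was -0.077. Of 5 adipocyte markers 4 were measured, Adipoq, Lep, Plin1 and Cidec, and 0 passed the filter. Of the 2 tested blood markers, Alas2 was at 5.62 to 7.77 in tumour-bearing mice and 4.59 to 5.21 in controls. The other, Ptprc, differed by -0.09. Of 6 tested microglia markers 5 were lower and 1 higher by sign, with a median of -0.19. Median differences were -0.07 for neuron, 0.02 for endothelium, -0.02 for tanycyte and ependyma and 0.16 for choroid plexus markers.

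**Figure D4:**
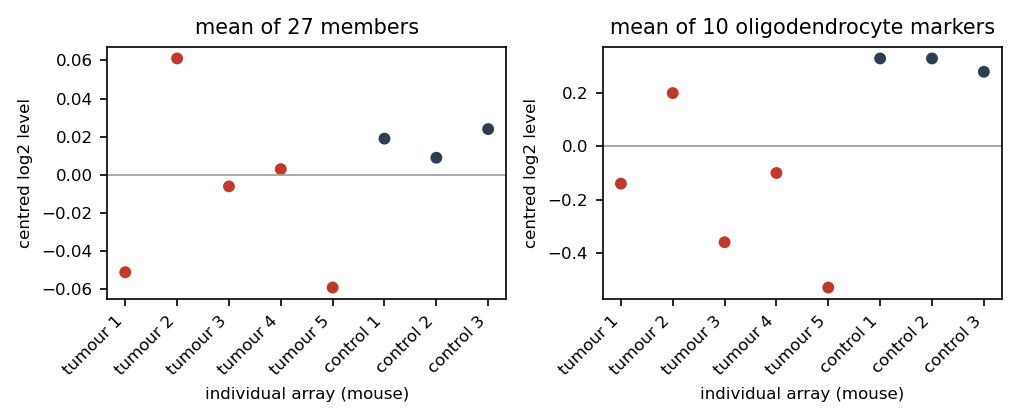
Mean centred log2 level (y axis) of the 27 genes (left) and of the 10 measured oligodendrocyte markers (right) on each individual array, with tumour-bearing mice in red and controls in dark points; the y axes differ in scale. Controls lie at 0.009 to 0.024 on the left and at 0.28 to 0.33 on the right, and tumour-bearing mouse 2 is the highest and mouse 5 the lowest tumour-bearing mouse in both.

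The pooled arrays gave a mixed picture. Of the 27 genes 16 were lower and 11 higher in the tumour-bearing pool than in the control pool, with a median of -0.014, and 19 had the sign seen in the individual arrays. Of all 12978 tested genes 6842 were lower and 6133 higher, with a median of -0.009, and 7901 had the sign seen in the individual arrays. Among pituitary markers, Gh was at 9.82 in the tumour-bearing and 4.37 in the control pool, and Prl at 6.83 and 2.98. Lhb and Ghrhr were also higher in the tumour-bearing pool, and Cga, Tbx19 and Tshb lower. Whether the pooled RNA came from the individually arrayed animals is not stated in the labels. For Acaa2, Acat1, Acot2, Echs1 and Ppargc1a both pools lay outside the range of all 8 individual arrays, 18.5% of the 27 genes against 25.5% of all tested genes.

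Further genes of the pathway extended the comparison. Of 70 listed, 60 had a probe set of their own and 55 were tested, with 0 called by limma. At an unadjusted p under 0.05, 4 were higher and 7 lower, or 7.27% and 12.7%, against 3.78% and 6.51% of all genes. The groups did not overlap for 3 higher and 5 lower genes, or 5.45% and 9.09%, against 3.11% and 5.19% of all genes. Their median difference was -0.023, beside -0.010 over all genes. The largest difference below 0 was in Slc16a1, the monocarboxylate transporter that carries lactate and ketone bodies and is found in brain endothelium and oligodendrocytes. Its levels were 7.75, 7.90, 7.71, 7.68 and 7.51 in tumour-bearing mice, against 8.19, 8.12 and 8.21 in controls. All tumour-bearing mice lay below all controls, and the difference was -0.46 ± 0.08 SE, or 0.726-fold with an interval of 0.643 to 0.820 (unadjusted p = 0.000183, limma adjusted p = 0.112). Slc16a1 passed the threshold when the test was limited to single-gene probe sets (limma adjusted p = 0.0201), with probe sets averaged per gene (0.0174) and without tumour-bearing mouse 2 (-0.51, 0.0295), with 0.0174 to 1 over all alternatives. It differed by -0.24 with the oligodendrocyte mean as a covariate.

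Activation of fatty acids was represented by Acsl6, an acyl-CoA synthetase of brain, which differed by -0.16 ± 0.04 SE without overlap (unadjusted p = 0.00553, limma adjusted p = 0.292), and by Acsbg1, another synthetase, at -0.12 ± 0.04 SE (limma adjusted p = 0.377). Acacb, the mitochondrial acetyl-CoA carboxylase whose product malonyl-CoA inhibits Cpt1a, had levels of 5.57, 5.59, 5.59, 5.54 and 5.55 in tumour-bearing mice, against 5.30, 5.37 and 5.37 in controls. The groups of Acacb were apart and both tight, and the difference was 0.22 ± 0.08 SE, or 1.16-fold (unadjusted p = 0.0163, limma adjusted p = 0.372). Acss1, a mitochondrial acetyl-CoA synthetase, differed by -0.20 ± 0.06 SE without overlap, and Acss3, another short-chain synthetase, by 0.33 ± 0.12 SE (limma adjusted p = 0.304 and 0.394). Abcd2, a peroxisomal transporter of very long chains, had levels of 7.44, 7.55, 7.35, 7.40 and 7.50 in tumour-bearing mice, against 7.75, 7.73 and 7.86 in controls. All tumour-bearing mice lay below all controls, by -0.33 ± 0.06 SE (unadjusted p = 0.000299, limma adjusted p = 0.135, and 0.0341 with single-gene probe sets only, with 0.0300 to 1 over all alternatives).

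Of the targets that follow fasting and lipid supply, Plin4, a coat protein of lipid droplets, had levels of 7.31, 6.11, 6.14, 6.64 and 6.54 in tumour-bearing mice, against 5.29, 5.37 and 5.44 in controls. No control reached the lowest tumour-bearing mouse, mouse 1 was the highest, and the fold was 2.27 with an interval of 1.56 to 3.30 (unadjusted p = 0.000722, limma adjusted p = 0.191, and 0.0319 with single-gene probe sets only, with 0.0297 to 1 over all alternatives). Angptl4, a secreted inhibitor of lipoprotein lipase, differed by 0.39 ± 0.13 SE, with tumour-bearing mouse 3 in the control range (limma adjusted p = 0.356). Plin2, another droplet coat protein, differed by -0.30 ± 0.11 SE, and Fabp3, a fatty acid binding protein, by -0.16 ± 0.06 SE (limma adjusted p = 0.394 and 0.389). Pdk4, the kinase that turns off pyruvate dehydrogenase in fasting, had levels of 8.21, 7.52, 7.44, 7.69 and 7.72 in tumour-bearing mice, against 7.72, 7.30 and 7.30 in controls (0.28 ± 0.17 SE, limma adjusted p = 0.611). Klf15, a transcription factor induced by glucocorticoids, had levels of 7.06, 6.67, 6.53, 6.76 and 6.64 in tumour-bearing mice, against 6.43, 6.50 and 6.62 in controls (0.21 ± 0.11 SE, limma adjusted p = 0.550). Pdk4 and Klf15 were named after their values were seen: mouse 1 was the highest of the 8 mice for both, as for Txnip and Plin4. Mouse 1 was also the highest for other listed genes, among them Acad9, Acss3, Angptl4, Bdh2, Mlycd, Sirt3, Ppara and Ppard. For others, such as Acss1 and Plin2, mouse 1 was the lowest tumour-bearing mouse. Whether Pdk4, Klf15, Txnip and Plin4 share a response in mouse 1 was not tested.

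**Figure D5:**
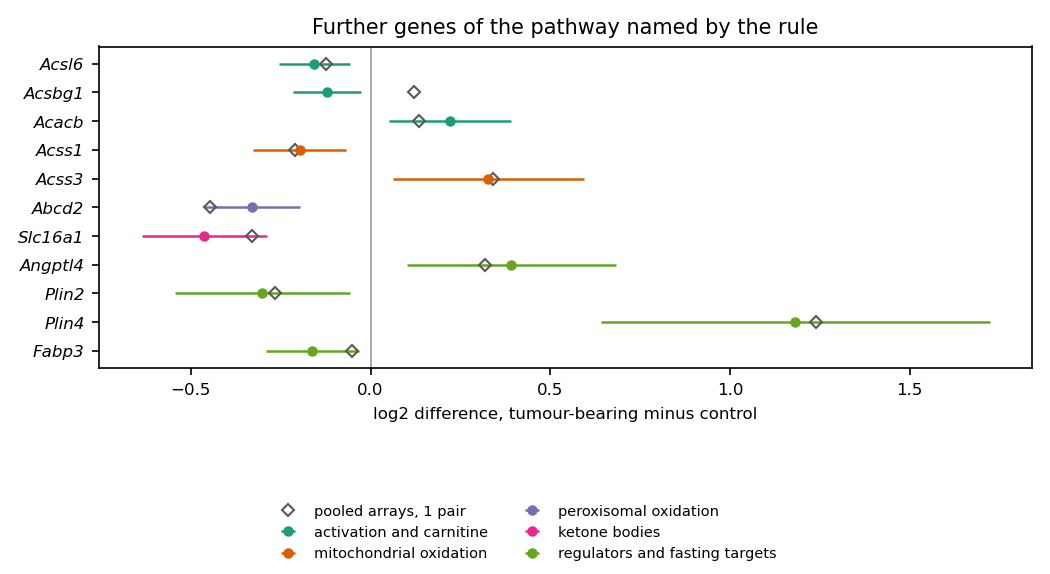
Difference between 5 tumour-bearing and 3 control mice (x axis, log2 scale, 95% intervals of limma as bars) for the 11 further genes with an unadjusted p under 0.05 that the naming rule took, coloured by group, with the difference of the pooled arrays as open diamonds. Plin4 lies at 1.18 and Slc16a1 at -0.46, and Acsbg1 is the gene whose pooled difference has the opposite sign.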

How the data were processed

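The deposited values are log2 levels per probe set, normalised by the authors with RMA, per the submitters' processing notes (version not given in the sources used here; the scale follows from their range). RMA gives all arrays a common distribution and compresses folds. Of 35556 probe sets, the platform annotation paired 21218 with 1 gene. A level above 20 (linear) on 3 or more of the 8 individual arrays was required, which kept 22837 probe sets, tested with limma 3.58.1 in R 4.3.3 (lmFit, eBayes with an intensity trend) and Benjamini-Hochberg adjustment over all of them. Pooled arrays entered no main test. The number of arrays limits the precision. The fit was checked on simulated data. Each gene took its brightest probe set, and probe set numbers were set against the chromosomes of neighbouring genes, a check added after seeing the data. The naming rule gave array values for members with an unadjusted p under 0.05 or separated groups and for a fixed set of shuttle, ketone and regulator genes, and from each further list up to 4 genes by p. Members, lists and alternatives were chosen with earlier results of these data known. Alternatives covered the filter, variance model, array weights, scaling, normalization, replicate block, pools, probe set choice, marker covariates and single animals left out. Promoter windows came from RefSeq (GRCm38.p6); proteins were not used here. Figures were drawn with matplotlib 3.10.9.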

Additional observations from a re-analysis of the deposited data

Results flagged for a closer look

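Among the 5 tumour-bearing mice, a single animal stood apart from the others for 4 of the 38 genes looked at, where about 1 in 20 groups does so by chance (gap to the nearest animal over the range above 0.71). Acot1 was at 5.06 in mouse 2, against 4.49 to 4.61 in the others. Acss1 was at 7.65 in mouse 1, against 7.81 to 7.86. Angptl4 was at 5.06 in mouse 3, against 5.43 to 5.56. Fabp3 was at 7.95 in mouse 2, against 7.73 to 7.80. The only member of the main list among them was Acot1.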

How the results depend on the processing

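No gene of the main list was called by limma under any of the 23 alternatives (lowest adjusted p 0.205, Ppargc1a), and 15 of the 27 kept the sign of the difference throughout, among them Cpt1a, Hadhb, Acadm and Ppargc1a. Over all genes, limma called 10, against 3 with no filter, 3 with no intensity trend, 17 with array weights, 77 with probe sets averaged per gene, 68 with single-gene probe sets only, 0 without tumour-bearing mice 3 and 4, 0 with each of the midbrain, oligodendrocyte and astrocyte covariates (the last chosen after seeing the data), and 0 to 53 with 1 animal left out (53 without tumour-bearing mouse 2). Of the further genes 0 were called, against 3 with averaged probe sets, 3 with single-gene probe sets, and 0 to 1 with 1 animal left out. The members' median of -0.061 was -0.019 with the midbrain and -0.001 with the oligodendrocyte covariate, and -0.077 to -0.029 with 1 animal left out. The cause was not tested for these or the following.

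Mice with the same replicate number did not deviate together over all tested probe sets (correlations of deviations -0.002, 0.008 and 0.009). The sample titles give only the numbers, so whether they mark a pairing is not known. With the replicate block 0 genes were called, Acads was at -0.029 and Cpt2 at 0.005.

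Signs turned for 12 of the 27 genes, with main differences of up to 0.167 in size (Etfa). With array weights Acaa2 was at 0.007, Acadl at -0.006, Acads at -0.029 and Etfb at 0.012. Acadl was at -0.002 with the pooled arrays as samples, and Etfb at 0.001 with quantile normalization. Without tumour-bearing mice 3 and 4 Acadl was at -0.005, Acads at -0.002 and Etfb at 0.013. With the midbrain covariate Echs1 was at 0.029, Eci1 at 0.014, Etfb at 0.069, Ppara at 0.013 and Slc25a20 at 0.067. With the oligodendrocyte covariate Echs1 was at 0.110, Etfa at 0.010, Etfb at 0.057, Hadh at 0.050, Ppara at 0.141 and Slc25a20 at 0.018. With the astrocyte covariate Acads was at -0.025, Cpt2 at 0.009, Echs1 at 0.003, Etfb at 0.007 and Ppara at 0.053. With 1 animal left out Acaa2 ran from -0.070 to 0.010, Acadl from -0.024 to 0.050, Acads from -0.067 to 0.101, Acot2 from -0.072 to 0.016, Cpt2 from -0.081 to 0.011, Eci1 from -0.151 to 0.001 and Etfb from -0.026 to 0.014. Hadhb from its dimmer probe set, chosen after seeing the data, was at -0.151. With 5 and 3 arrays the precision is that of the intervals given for each gene.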
